A study of Mus musculus with 24 samples.

Results

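Sorted satellite cells were compared with sorted endothelial cells of mouse muscle on day 2 after injury. The comparison uses the 6 of 24 arrays whose titles name day 2, which are 3 arrays titled satellite cells and 3 titled endothelial cells. Satellite cells are the stem cells of skeletal muscle, and endothelial cells line its vessels. The tibialis anterior, a muscle at the front of the shin, was injured with cardiotoxin, a snake venom toxin that destroys muscle fibres, and was taken before injury (day 0) or 2, 4 or 8 days after it. The satellite sort kept CD45 negative, Sca1 negative, CD31 negative cells with alpha7-integrin and positive or low CD34. The endothelial sort kept CD45 negative cells with Sca1, CD34 and CD31. The other 18 arrays hold the same sorts on days 0, 4 and 8, with 3 arrays a group, and each array is titled a biological replicate. All mice of day 2 shared the injury, and their strain, age and sex, any pooling of animals and the number of cells sorted are not given in the sources used here.

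Groups follow the titles, which match the source name of all 24 samples. The separate cell type field names the other sort for the 3 satellite arrays and matches the 3 endothelial arrays. The separate time field names another day for all 6 arrays, and neither field was used. Values are the authors' log2 RMA levels, and values of a gene are listed below for replicates 1, 2 and 3 of a sort in that order. A difference is the satellite mean minus the endothelial mean on this scale, with its standard error (SE). Calls needed an adjusted p below 0.05 together with a difference of 1 or more either way, and only called genes are said to be higher or lower.

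The genes behind the gates on alpha7-integrin, CD31, CD34 and CD45 were checked first, and that of Sca1 was not. Itga7, which encodes alpha7-integrin, read 6.40, 6.67 and 6.03 in the satellite sort, against 5.01, 4.41 and 4.85 in the endothelial sort (1.61, SE 0.28, adjusted p = 0.000413). Pecam1, which encodes CD31, read 8.66, 10.78 and 9.17 in the satellite sort and 11.29, 11.43 and 11.46 in the endothelial sort (-1.86, SE 0.38, adjusted p = 0.0015). Both genes separated the sorts in the direction of the gates, while Pecam1 lay far above the array medians in the satellite sort too. Cd34 was lower in the satellite sort (-2.02, SE 0.37, adjusted p = 0.00062). Fitted on the 6 arrays of day 2 alone, Pecam1 and Cd34 were no longer called (adjusted p = 0.0738 and 0.067). Pax7, the transcription factor that defines satellite cells, read 4.67, 5.70 and 5.16 in the satellite sort, against 5.10, 4.36 and 4.22 in the endothelial sort. The groups overlapped, and Pax7 was not called (0.62, SE 0.37, adjusted p = 0.322). Ptprc, which encodes CD45, read 9.82, 8.01 and 9.67 in the satellite sort, against 6.75, 4.32 and 3.64 in the endothelial sort (4.26, SE 0.79, adjusted p = 0.000726). Every satellite array therefore held more Ptprc than every endothelial array, although both gates removed CD45 positive cells. The data thus go against a plain satellite cell label on day 2, and the arrays are called the satellite sort below.

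Replicate 2 of the satellite sort stood apart. Over all genes tested its correlation was 0.863 and 0.869 with the other satellite arrays, against 0.896, 0.867 and 0.867 with the endothelial arrays, while the other satellite arrays had a correlation of 0.944 with each other. The 20 markers of all leukocytes averaged 9.87, 8.14 and 9.87 in the satellite sort and 7.38, 5.43 and 6.18 in the endothelial sort. The 30 endothelial identity genes averaged 6.28, 8.15 and 6.70 in the satellite sort and 8.98, 9.22 and 9.40 in the endothelial sort. Replicate 2 thus had the least leukocyte and the most endothelial signal of the satellite arrays, and endothelial replicate 1 had the most leukocyte signal of its sort. Counts are therefore also given without satellite replicate 2, a check chosen after seeing the data.

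After cardiotoxin, dying fibres draw in neutrophils and then monocytes, which become macrophages and clear debris. Satellite cells leave rest at this time, start the myogenic programme under Myf5 and Myod1 and begin to divide, while capillaries are damaged and new ones sprout. Sprouting is led by tip cells that express the ligand Dll4, the peptide Apln and the destabilizing factor Angpt2, and receptors for VEGF such as Kdr guide them.

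Of the 14064 genes tested, 819 (5.82%) were called higher and 887 (6.31%) lower in the satellite sort. Without satellite replicate 2 the counts were 1065 (7.57%) and 1041 (7.4%), and 763 of the 819 and 809 of the 887 were among them. In 640 of the 819 genes called higher, replicate 2 read lowest of the 3 satellite arrays, and in 669 of the 887 called lower it read highest. Over all genes tested it was lowest in 5165 and highest in 5632. The satellite arrays lay wholly above the endothelial arrays in 1569 genes (11.2%) and wholly below in 2438 (17.3%). The median difference over all genes was -0.05. Fitted on the 6 arrays alone, 338 genes were higher and 447 lower.

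**Figure D1:**
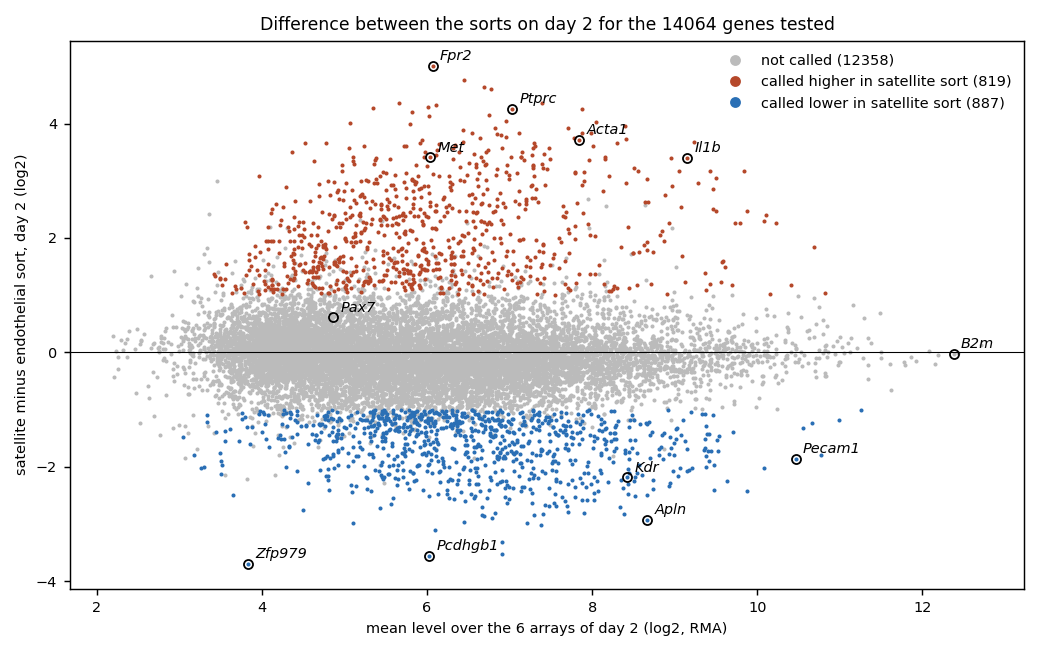
Difference between the sorts on day 2 (satellite minus endothelial, log2) against the mean level over the 6 arrays for the 14064 genes tested, with 819 called higher and 887 called lower in colour and 12 genes circled. Fpr2 and Ptprc lie among the largest positive differences, Zfp979 and Pcdhgb1 among the largest negative ones, and Pax7 and B2m near 0.

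Leukocyte genes led the differences in favour of the satellite sort. Of the 20 markers of all leukocytes, each of which passed the filter on low values, 19 were higher in the satellite sort, with a median difference of 3.06. Without satellite replicate 2, 20 were. Spi1, which encodes the myeloid regulator PU.1, read 10.23, 8.44 and 10.33 in the satellite sort, against 7.12, 4.87 and 5.26 in the endothelial sort (3.92, SE 0.80, adjusted p = 0.00173). Lst1, a transmembrane protein of leukocytes, read 11.19, 10.70 and 11.31 in the satellite sort, against 7.96, 6.47 and 7.72 in the endothelial sort (3.68, SE 0.61, adjusted p = 0.000259). The lowest satellite array lay above the highest endothelial array for both. Tyrobp, the adaptor DAP12 of myeloid receptors, was 5.52-fold higher (2.46, SE 0.61), and Cd53 and the transcription factor gene Ikzf1 were higher as well (3.41, SE 0.73 and 4.02, SE 0.55). The exception on all 3 satellite arrays was Hcls1 at 0.76 (SE 0.42, adjusted p = 0.273), which was called without satellite replicate 2 (1.28).

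Neutrophil genes were higher in the satellite sort in 19 of the 26 on the array when all 23279 genes were fitted without a filter on low values, a fit that called 3.64% of all genes higher, and the median difference over the 26 was 2.66. With the filter 18 of the 26 were tested and 17 called, with and without satellite replicate 2. Of those 18, 9 passed only through the satellite arrays of day 2 and so had to be high there, and the filtered count is given as a description. In each other list at most 3 members passed in that way. Fpr2, a receptor by which neutrophils sense bacterial and mitochondrial formyl peptides, read 9.26, 7.59 and 8.88 in the satellite sort, against 2.85, 4.06 and 3.77 in the endothelial sort (5.01, SE 0.36, adjusted p = 2.36e-08). Il1r2, the decoy receptor that binds interleukin-1 without signalling, read 9.78, 8.29 and 8.96 in the satellite sort, against 5.23, 4.14 and 3.72 in the endothelial sort (4.65, SE 0.33, adjusted p = 2.36e-08). The gap between the sorts exceeded the spread within either of them for both. Csf3r, the receptor for the neutrophil growth factor G-CSF, read 8.70, 6.89 and 8.14 in the satellite sort, against 4.34, 3.65 and 3.15 in the endothelial sort (4.20, SE 0.37). Clec4e, which senses dead cells and fungi, and Trem1, an amplifier of neutrophil and monocyte responses, were higher by 4.61 (SE 0.60) and 4.14 (SE 0.50). Mpo, the myeloperoxidase made by immature granulocytes, was the one filtered member not called (-0.01, SE 0.21, adjusted p = 0.982).

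Monocyte and macrophage genes were higher in the satellite sort in 26 of the 30 that passed the filter, of 31 on the array, and 28 were called without satellite replicate 2. The median difference over the 31 was 2.99. Ccr2, the receptor that brings monocytes from blood into tissue, read 11.08, 9.19 and 10.88 in the satellite sort, against 8.44, 3.44 and 7.37 in the endothelial sort (3.96, SE 0.83, adjusted p = 0.00198). The endothelial arrays spread widely here, with replicate 1 highest and replicate 2 lowest, and the sorts still did not overlap. Fcgr1, the high-affinity receptor for immunoglobulin G, was 14.2-fold higher (3.83, SE 0.75), and Plac8, a small cysteine-rich protein of leukocytes, 19.2-fold (4.26, SE 0.74). Clec4n, the fungal receptor Dectin-2, was higher by 4.36 (SE 0.56). Mertk, a receptor by which resident macrophages take up dead cells, was not called (-0.67, SE 0.50, adjusted p = 0.442). In bulk samples, more cells of a type and more RNA per cell cannot be told apart.

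Lymphocyte and mast cell markers were mostly under the filter. Of the 19 lymphocyte genes on the array 7 passed, and Trac and Klrd1 were higher in the satellite sort (2.73, SE 0.71 and 2.06, SE 0.60). Neither call was kept without satellite replicate 3, and Klrd1 also lost its call without satellite replicate 1 or endothelial replicate 2 or 3. Of the 9 mast cell and basophil genes on the array only Kit passed, which is also the receptor for stem cell factor on endothelium. It read 5.70, 6.60 and 5.33 in the satellite sort, against 8.77, 9.16 and 8.74 in the endothelial sort (-3.02, SE 0.36, adjusted p = 1.32e-05).

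Other genes among the 12 largest positive differences were also known from myeloid cells. Hp encodes haptoglobin, which binds free hemoglobin and is stored by neutrophils. It read 9.43, 7.79 and 9.26 in the satellite sort, against 4.96, 3.71 and 3.54 in the endothelial sort (4.76, SE 0.38, adjusted p = 1.32e-07). Bcl2a1a, a survival factor with near-identical copies that the probes may not separate, was higher by 4.32 (SE 0.51). Ms4a6b (4.36, SE 0.98), Klra2, a receptor of the Ly49 family (4.27, SE 0.49), and Gm5150 (4.30, SE 0.63) completed the 12 with genes named above.

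**Figure D2:**
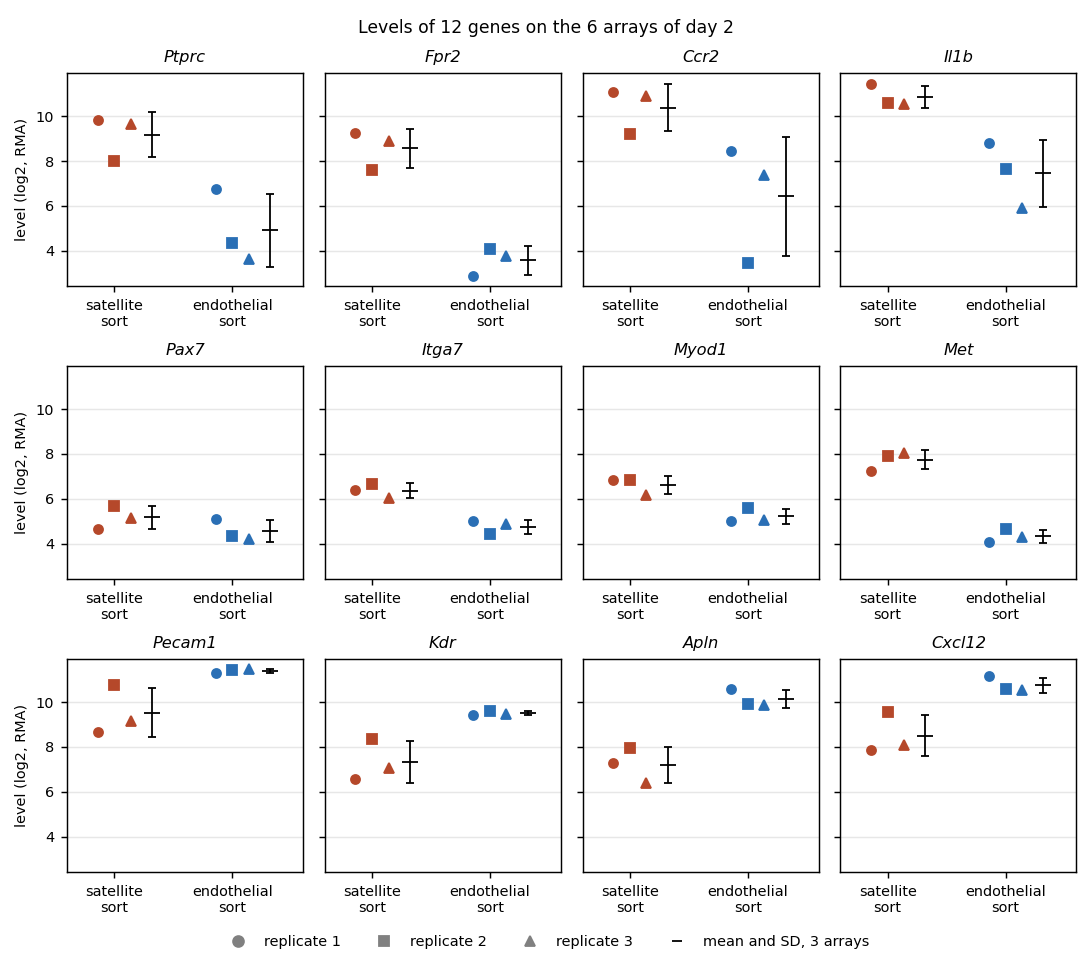
Log2 RMA level of 12 genes on each array of day 2, satellite sort left and endothelial sort right of each panel, with the mean and SD of 3 arrays beside the points. Ptprc, Fpr2, Ccr2 and Il1b lie higher on every satellite array, Pecam1, Kdr, Apln and Cxcl12 lower on every satellite array, and Pax7 overlaps.

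Genes of the inflammatory response followed the leukocyte markers, and their relation to leukocyte content was not tested. Of 25 chemokine genes 13 were higher and 2 lower in the satellite sort (14 and 2 without satellite replicate 2). Ccl7, a ligand of Ccr2, read 11.40, 10.52 and 11.13 in the satellite sort, against 9.51, 6.13 and 7.89 in the endothelial sort (3.17, SE 0.60). Ccl4, a chemokine made by activated macrophages, was 13.3-fold higher (3.73, SE 0.58), and Ccl12, Ccl6 and Ccl9 were higher by 3.82, 3.38 and 3.17. The 2 lower genes were Cxcl12, which retains blood-forming and other cells in tissue, and Cxcl9, an interferon-induced attractant of T cells. Cxcl12 read 7.86, 9.55 and 8.10 in the satellite sort, against 11.15, 10.57 and 10.55 in the endothelial sort (-2.25, SE 0.39, adjusted p = 0.000411). Cxcl9 was lower by 1.94 (SE 0.46, adjusted p = 0.00563).

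Of 28 genes of interleukin-1, TNF, interleukin-6 and NF-kB feedback, 14 were higher in the satellite sort (16 without satellite replicate 2). Il1b, the cytokine interleukin-1 beta, read 11.44, 10.57 and 10.55 in the satellite sort, against 8.82, 7.63 and 5.88 in the endothelial sort (3.41, SE 0.64, adjusted p = 0.000836). Ptgs2, the inducible enzyme of prostaglandin synthesis, was 16.4-fold higher (4.04, SE 0.63), and Nlrp3, the sensor of an inflammasome that matures interleukin-1 beta, was higher by 3.60 (SE 0.54). Osm, the cytokine oncostatin M, and its receptor chain lay on opposite sides. Osm was higher by 2.69 (SE 0.49), and Osmr was lower by 1.73 (SE 0.51, adjusted p = 0.0245). Osmr overlapped between the sorts and lost its call without satellite replicate 1 or 3 or endothelial replicate 2 or 3.

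Of 14 complement genes tested 6 were higher and 1 lower, and 9 were higher without satellite replicate 2. The receptors C5ar1 and C3ar1 for the fragments C5a and C3a were 9.6-fold and 7.63-fold higher (3.26, SE 0.65 and 2.93, SE 0.55), and Cfp, the activator properdin, was 6.21-fold higher. Of 19 genes of heme and iron handling 7 were higher. Besides Hp these included Slc7a11, a cystine importer (2.96, SE 0.43), and Slc11a1, an iron transporter of phagosomes (2.57, SE 0.45). Hmox1, which breaks down heme, read 10.20, 10.52 and 10.59 in the satellite sort, against 9.76, 9.62 and 9.99 in the endothelial sort. It was not called (0.65, SE 0.23, adjusted p = 0.0629), although the groups did not overlap.

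Of 25 lysosome and phagocytosis genes 10 were higher and 1 lower in the satellite sort. That count fell to 4 without satellite replicate 1 or 3 and to 3 without endothelial replicate 2, and came to 13 without satellite replicate 2. Axl, a receptor for bridging proteins on dead cells, read 7.49, 8.59 and 7.98 in the satellite sort, against 4.60, 4.94 and 4.78 in the endothelial sort (3.25, SE 0.29, adjusted p = 5.81e-07). Unlike the leukocyte markers, Axl was highest on satellite replicate 2. Its bridging ligand Gas6 was lower in the satellite sort (-1.13, SE 0.24, adjusted p = 0.00206), a call lost without endothelial replicate 3 (-0.94). Msr1, a scavenger receptor of macrophages, was higher by 3.29 (SE 0.71).

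Genes that present antigen on MHC class II to helper T cells were higher in 5 of the 11 that passed the filter, and in 6 of the 15 on the array in the fit without it. The count was 7 without satellite replicate 2, and 2 without satellite replicate 1 or 3 or endothelial replicate 2. H2-DMa, which loads peptides, read 8.80, 6.08 and 8.96 in the satellite sort, against 5.67, 4.17 and 4.99 in the endothelial sort (3.00, SE 0.60, adjusted p = 0.00138). H2-Aa, a chain of the class II molecule, read 10.30, 7.01 and 10.25 in the satellite sort, against 6.96, 4.31 and 6.15 in the endothelial sort (3.38, SE 0.94, adjusted p = 0.0163). Satellite replicate 2 lay nearer to the endothelial arrays than to the other satellite arrays for both genes. H2-Aa lost its call without satellite replicate 1 or 3 or endothelial replicate 2.

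Of 19 matrix protease and inhibitor genes 7 were higher and 4 lower, and 2 were lower without satellite replicate 1. Mmp9, the gelatinase released by neutrophils and macrophages, read 9.23, 6.68 and 7.48 in the satellite sort, against 4.76, 4.28 and 3.22 in the endothelial sort (3.71, SE 0.44, adjusted p = 1.32e-05). Mmp8, the collagenase of neutrophils, read 6.82, 4.85 and 7.21 in the satellite sort, against 3.65, 3.34 and 2.92 in the endothelial sort (2.99, SE 0.38). Both were above every endothelial array on every satellite array. Mmp19 (3.42, SE 0.33) and Adam8 (2.95, SE 0.39) were higher, and Adamts1, a protease that cleaves versican, and Timp3, an inhibitor bound to matrix, were lower (-1.44, SE 0.29 and -1.33, SE 0.33). Timp3 lost its call without satellite replicate 1 (-0.89).

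The upstream sequence of Mmp8 is shown because it holds the core letters bound by PU.1, the factor encoded by Spi1. Sequences are those of RefSeq, the 250 bases before the gene start on build GRCm38.p6, and were found for 10874 of the 14064 genes. GAGGAAGT was searched on both strands and is in capitals, here on the opposite strand. The Mmp8 window lies at chr9:7558179-7558428 on the plus strand.
Mmp8: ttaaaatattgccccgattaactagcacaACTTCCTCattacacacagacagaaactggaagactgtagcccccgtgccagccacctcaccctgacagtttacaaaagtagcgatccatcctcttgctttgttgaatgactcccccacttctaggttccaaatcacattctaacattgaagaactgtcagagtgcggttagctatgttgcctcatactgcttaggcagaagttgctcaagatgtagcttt
These letters occurred in 42 of the 617 windows of genes called higher (6.81%), 21 of the 665 of genes called lower (3.16%) and 315 of all 10874 (2.9%). By list they were in 3 of 17 windows of neutrophils (17.6%), 2 of 13 of all leukocytes (15.4%) and 2 of 23 of macrophages and monocytes (8.7%). Endothelial identity had 2 of 17 (11.8%), and with so few windows a list these shares cannot tell the lists apart. A match describes the letters and not a bound site.

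Myogenic genes were higher in the satellite sort in part. Of the 34 genes of satellite cell identity and rest, 10 were higher and 4 lower on day 2, with a median difference of 0.47, and without satellite replicate 2 the counts were 11 and 4. Myf5 and Myod1, the factors that commit cells to the muscle lineage, were both higher. Myf5 read 5.81, 5.62 and 5.35 in the satellite sort, against 4.49, 3.55 and 3.71 in the endothelial sort (1.68, SE 0.38, adjusted p = 0.00408). Myod1 read 6.82, 6.85 and 6.16 in the satellite sort, against 5.02, 5.57 and 5.04 in the endothelial sort (1.40, SE 0.29, adjusted p = 0.00179). The 3 satellite arrays lay above the endothelial arrays for both genes, and replicate 2 did not fall below the others. Myog, the factor of differentiating myocytes, was not called (0.57, SE 0.34, adjusted p = 0.32).

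The surface genes of the identity list did not behave alike. Vcam1, Sdc3 and Itgb1 were not called (0.003, 0.35 and -0.55), while Met and Sdc4 had the largest positive differences of the list's called genes. Met, the receptor for hepatocyte growth factor, which wakes satellite cells from rest, read 7.25, 7.93 and 8.04 in the satellite sort, against 4.06, 4.64 and 4.28 in the endothelial sort (3.41, SE 0.38, adjusted p = 9.35e-06). Sdc4, a heparan sulfate proteoglycan that carries growth factors, read 8.55, 8.30 and 7.99 in the satellite sort, against 6.41, 4.52 and 5.57 in the endothelial sort (2.78, SE 0.43, adjusted p = 0.000136). Both sat above every endothelial array on each satellite array, satellite replicate 2 included. Des, the muscle intermediate filament desmin, was 4.1-fold higher (2.03, SE 0.41) and Asb5, a muscle ankyrin repeat protein, was higher by 1.73 (SE 0.39). Spry1, a brake on growth factor signals that keeps satellite cells at rest, was lower in the satellite sort (-1.91, SE 0.44, adjusted p = 0.00402). The Notch targets Hey1 and Hes1 were lower too (-1.62, SE 0.36 and -1.06, SE 0.36). Hes1 lost its call in most fits that left out 1 array, and the number of lower genes in this list was 2 without satellite replicate 1 or 3.

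Of 27 genes of myogenic commitment and fusion tested, of 30 on the array, 9 were higher and 1 lower (8 and 1 without satellite replicate 2). The largest were genes of the contractile apparatus and of the nerve contact of muscle. Acta1, skeletal alpha-actin, read 9.00, 9.85 and 10.26 in the satellite sort, against 6.30, 6.14 and 5.51 in the endothelial sort (3.72, SE 0.47, adjusted p = 2.75e-05). Chrna1, a subunit of the muscle acetylcholine receptor, read 7.25, 7.73 and 7.01 in the satellite sort, against 4.35, 3.97 and 4.59 in the endothelial sort (3.02, SE 0.39, adjusted p = 3.35e-05). Neither gene had its lowest satellite value near the endothelial range. Ckm, the muscle creatine kinase, was 4.73-fold higher (2.24, SE 0.52), and Mylpf, a myosin light chain of fast fibres, 8.83-fold (3.14, SE 0.55). Neb, the giant thin filament protein nebulin, was higher by 1.42 (SE 0.28). Acta1, Mylpf, Ckm and Neb are known from mature fibres, whose share of the RNA was not measured. The one lower gene was Jam2, a junction protein needed for myoblast fusion and also made by endothelium (-2.58, SE 0.42).

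The 250 bases upstream of Chrna1 and Ckm are shown because they hold CAGCTG, the E-box letters bound by Myod1 and its relatives, in capitals. The palindrome reads alike on both strands. The Chrna1 window is chr2:73580339-73580588 on the minus strand and holds 2 copies, and the Ckm window is chr7:19410844-19411093 on the plus strand and holds 1.
Chrna1: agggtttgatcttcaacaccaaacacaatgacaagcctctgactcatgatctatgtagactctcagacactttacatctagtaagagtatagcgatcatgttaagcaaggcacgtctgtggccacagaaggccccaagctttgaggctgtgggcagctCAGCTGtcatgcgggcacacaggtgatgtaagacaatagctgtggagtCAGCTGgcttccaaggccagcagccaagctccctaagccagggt
Ckm: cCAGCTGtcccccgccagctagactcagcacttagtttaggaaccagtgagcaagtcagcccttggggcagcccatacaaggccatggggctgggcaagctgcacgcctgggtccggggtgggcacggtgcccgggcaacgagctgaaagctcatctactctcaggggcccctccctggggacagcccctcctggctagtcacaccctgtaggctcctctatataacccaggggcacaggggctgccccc
CAGCTG occurred in 8 of 20 windows of the myogenic list (40%) and in 1601 of all 10874 (14.7%). It was in 115 of 617 of genes called higher (18.6%) and 118 of 665 of genes called lower (17.7%). Other lists went both ways, with 2 of 24 windows of satellite cell identity (8.33%) and 1 of 17 of neutrophils (5.88%). The macrophage and monocyte list had 7 of 23 (30.4%).

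Endothelial genes were lower in the satellite sort throughout their identity list, and they were far from absent there. Of 30 endothelial identity genes 30 were lower, with a median difference of -2.17, and 30 were lower without satellite replicate 2 (median -2.74). Cdh5, the cadherin of endothelial junctions, read 9.07, 10.99 and 9.54 in the satellite sort, against 11.46, 11.77 and 11.80 in the endothelial sort (-1.80, SE 0.33, adjusted p = 0.000655). Kdr, the main VEGF receptor, read 6.58, 8.37 and 7.04 in the satellite sort, against 9.44, 9.62 and 9.48 in the endothelial sort (-2.18, SE 0.35, adjusted p = 0.000178). Satellite replicate 2 was nearest to the endothelial arrays for both, and it read highest of the satellite arrays in 29 of the 30 genes. The angiopoietin receptor Tek was 6.42-fold lower (-2.68, SE 0.45), its partner Tie1 6.33-fold (-2.66, SE 0.50) and the sialomucin Podxl 5.77-fold (-2.53, SE 0.43). Ly6c1 read 3.25, 4.31 and 3.25 in the satellite sort, under the median of each array, against 6.59, 5.95 and 7.24 in the endothelial sort (-2.99, SE 0.56). It shares much of its sequence with Ly6c2, which went the other way (2.47, SE 0.34).

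Of 24 endothelial transcription factor genes 11 were lower and 1 higher (12 and 1 without satellite replicate 2). Sox7 and Sox18, factors that specify vessels, were 6.24-fold and 4.91-fold lower (-2.64, SE 0.37 and -2.30, SE 0.43). Bcl6b and Mecom were 6.23-fold and 5.81-fold lower (-2.64, SE 0.38 and -2.54, SE 0.31). Tcf15, which with Meox2 drives fatty acid uptake in muscle capillaries, was lower by 2.24 (SE 0.35). The higher gene was Heyl (1.54, SE 0.36), a Notch target that satellite cells also express. Fli1 and Ets2, ETS factors that leukocytes also express, were not called (-0.86, SE 0.37 and -0.32, SE 0.27).

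Genes of vessel sprouting were lower in the satellite sort in 17 of 23 tested and higher in 1. The secreted factors came first. Apln, the tip cell peptide apelin, read 7.27, 7.96 and 6.38 in the satellite sort, against 10.59, 9.93 and 9.88 in the endothelial sort (-2.93, SE 0.44, adjusted p = 0.000115). Angpt2, which loosens vessels, read 5.49, 8.30 and 5.68 in the satellite sort, against 9.74, 9.17 and 9.00 in the endothelial sort (-2.81, SE 0.58, adjusted p = 0.00174). Both separated the sorts, with Angpt2 far higher on satellite replicate 2 than on the other satellite arrays. Pgf, a VEGF relative that binds Flt1, and Flt1 itself were 6.42-fold and 4.74-fold lower (-2.68, SE 0.39 and -2.25, SE 0.32). The higher gene was Vegfa, the ligand of Kdr and Flt1. It read 7.88, 6.65 and 7.02 in the satellite sort, against 6.03, 4.76 and 5.24 in the endothelial sort (1.84, SE 0.33, adjusted p = 0.000535). Ligand and receptors thus stood on opposite sides of this comparison.

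Of 22 growth factor genes tested, 4 were higher (Osm, Inhba, Vegfa and Csf1) and 8 lower, and 3 and 8 were without satellite replicate 2. Csf1, the growth factor of macrophages, read 8.90, 8.03 and 7.89 in the satellite sort, against 6.39, 6.07 and 7.12 in the endothelial sort (1.75, SE 0.39, adjusted p = 0.00329). Inhba, a subunit of activin, was higher by 1.94 (SE 0.52), a call lost without satellite replicate 1 or 2 or endothelial replicate 2 or 3. Pdgfb, by which endothelium recruits pericytes, read 5.14, 5.61 and 5.14 in the satellite sort, against 8.14, 7.56 and 7.60 in the endothelial sort (-2.47, SE 0.37, adjusted p = 0.000101). Bmp2, a bone morphogenetic protein, was lower by 2.61 (SE 0.39, adjusted p = 0.000115).

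Notch signalling runs between a ligand on one cell and a receptor on its neighbour. Among 18 genes of the pathway, 3 were higher and 9 lower in the satellite sort (2 and 9 without satellite replicate 2). Of the ligands, Dll4 read 6.25, 7.76 and 5.79 in the satellite sort, against 8.61, 8.75 and 8.15 in the endothelial sort (-1.90, SE 0.43), and Jag2 was lower as well (-1.77, SE 0.36). The receptors went both ways. Notch2 read 7.87, 6.33 and 8.19 in the satellite sort, against 5.82, 4.53 and 4.68 in the endothelial sort (2.46, SE 0.38, adjusted p = 0.00014), and Notch4, the endothelial receptor, was lower by 1.90 (SE 0.30, adjusted p = 0.00017). Notch3, a receptor of satellite cells and pericytes, was called higher at 1.44 (SE 0.45, adjusted p = 0.032) but not without satellite replicate 2 (0.84) or endothelial replicate 2 or 3. Mfng, which modifies the receptors, was lower by 1.85 (SE 0.38).

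Fatty acid and leukocyte adhesion genes of endothelium showed fewer calls. Of 16 genes of capillary fatty acid handling 5 were lower and 1 higher. Gpihbp1, which holds lipoprotein lipase on the capillary wall, read 7.59, 9.86 and 8.53 in the satellite sort, against 10.97, 11.07 and 11.22 in the endothelial sort (-2.43, SE 0.34, adjusted p = 6.36e-05). Meox2 was 3.61-fold lower (-1.85, SE 0.29), and the number of lower genes was 3 without satellite replicate 1 or endothelial replicate 3. Of 11 adhesion genes 3 were lower and 1 higher, and 5 were lower and 2 higher without satellite replicate 2. The junction protein F11r and the integrin ligand Icam2 were lower (-2.02, SE 0.33 and -1.84, SE 0.41), and the hyaluronan receptor Cd44 was higher (1.99, SE 0.34). Selp, the P-selectin that catches rolling leukocytes, read 5.76, 8.54 and 6.73 in the satellite sort and 7.71, 8.42 and 7.25 in the endothelial sort. It was not called (-0.79, SE 0.52, adjusted p = 0.381), but was without satellite replicate 2 (-1.55).

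Among the 12 largest negative differences were genes outside the lists. Zfp979, a zinc finger protein, read 2.20, 1.79 and 1.95 in the satellite sort, under the array medians, against 5.08, 6.12 and 5.83 in the endothelial sort (-3.70, SE 0.43, adjusted p = 1.18e-05). Pcdhgb1, a protocadherin of the gamma cluster, read 4.22, 4.01 and 4.51 in the satellite sort, against 8.08, 7.33 and 8.00 in the endothelial sort (-3.56, SE 0.66, adjusted p = 0.000711). Both had satellite values near or under the array medians on all 3 arrays, satellite replicate 2 included. Pcdhgb2 was lower by 2.97 (SE 0.46). Genes of this cluster share their last exons, so that probe sets may not separate them, and in a count made after seeing these values 6 of the 20 gamma genes tested were called lower. Cyb561, an electron carrier of vesicle membranes, was lower by 3.53 (SE 0.50), and Prnd, the prion-like protein doppel, by 3.32 (SE 0.40). Ablim3, Gprc5b, Adh1 and Car8 were lower by 3.10, 2.99, 2.89 and 2.87.

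Matrix genes fell on both sides by their kind. Of 29 genes of fibrillar matrix and fibroblasts 17 were higher in the satellite sort, with a median difference of 1.57, and 13 were without satellite replicate 2 and 11 without satellite replicate 3. Dcn, the collagen-binding proteoglycan decorin, read 7.81, 7.88 and 7.95 in the satellite sort, against 4.67, 4.56 and 3.82 in the endothelial sort (3.53, SE 0.50, adjusted p = 7.13e-05). Col1a2, a chain of type I collagen, read 5.77, 7.51 and 7.16 in the satellite sort, against 4.56, 4.28 and 4.48 in the endothelial sort (2.37, SE 0.36, adjusted p = 0.000112). The sorts did not overlap for either gene, and Dcn was nearly equal on the 3 satellite arrays. Postn, the matricellular protein periostin, was higher by 2.75 (SE 0.43), and Vcan, the large proteoglycan versican that monocytes also make, by 2.70 (SE 0.46). Fmod was called at 2.27 (SE 0.72, adjusted p = 0.0362), with satellite values from 3.72 to 7.47, and lost its call without satellite replicate 2 or 3 or any endothelial array.

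Basement membrane genes were lower in the satellite sort in 11 of 16 and higher in 1, and 13 were lower without satellite replicate 2. Col4a1, a chain of type IV collagen, read 6.37, 8.66 and 7.12 in the satellite sort, against 9.25, 9.53 and 9.73 in the endothelial sort (-2.12, SE 0.39, adjusted p = 0.000725). Hspg2, the proteoglycan perlecan, read 7.57, 9.27 and 7.77 in the satellite sort, against 10.05, 10.26 and 10.36 in the endothelial sort (-2.02, SE 0.29, adjusted p = 6.86e-05). Satellite replicate 2 read highest of the satellite arrays in 16 of the 16 genes, as it did in 29 of 30 endothelial identity genes. Lama4, the laminin chain of vessels, was 5.38-fold lower (-2.43, SE 0.40) and Nid2, a linker of laminin and collagen, 4.21-fold (-2.07, SE 0.32). Lama2, the laminin chain of muscle fibres, was the higher gene (1.26, SE 0.41, adjusted p = 0.0434), and lost its call in several fits that left out 1 array, satellite replicate 2 among them (0.98).

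Markers of other cell types that a sort could hold were read beside these matrix genes. Of 13 markers of fibro-adipogenic progenitors, the connective tissue cells of muscle, 5 were higher and 1 lower, and 3 were higher without satellite replicate 3 or endothelial replicate 2 or 3. Cd248, a membrane protein of these cells and of pericytes, read 7.36, 8.81 and 8.42 in the satellite sort, against 6.23, 4.93 and 5.37 in the endothelial sort (2.68, SE 0.58, adjusted p = 0.00266). The list averaged 5.17, 5.59 and 5.54 in the satellite sort and 4.79, 4.57 and 4.53 in the endothelial sort. Of 18 pericyte and smooth muscle genes 2 were higher (Des and Notch3, both also satellite cell genes) and 1 lower, and the higher count ranged between 1 and 4 when 1 array was left out. Their mean was 6.44, 7.87 and 6.56 in the satellite sort and 6.71, 5.57 and 5.84 in the endothelial sort, so that satellite replicate 2 was high and the other satellite arrays lay within the endothelial range. Of 4 lymphatic markers Pdpn, which inflammatory macrophages and fibroblasts also express, was higher by 3.45 (SE 0.46), and Flt4 was lower by 1.66 (SE 0.24). Of 7 Schwann cell markers Egr2, also an early response gene of myeloid cells, was higher by 2.54 (SE 0.35), and S100b was called at 1.28 (SE 0.43, adjusted p = 0.0464), a call lost when any 1 of the 6 arrays was left out. The red cell gene Hbb-bs read 6.58, 9.01 and 9.90 in the satellite sort, against 7.70, 4.07 and 5.94 in the endothelial sort, and its call (2.59, SE 0.87, adjusted p = 0.0499) was lost without satellite replicate 2 or 3 or endothelial replicate 2 or 3. The part of these cell types in the matrix differences was not tested.

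**Figure D3:**
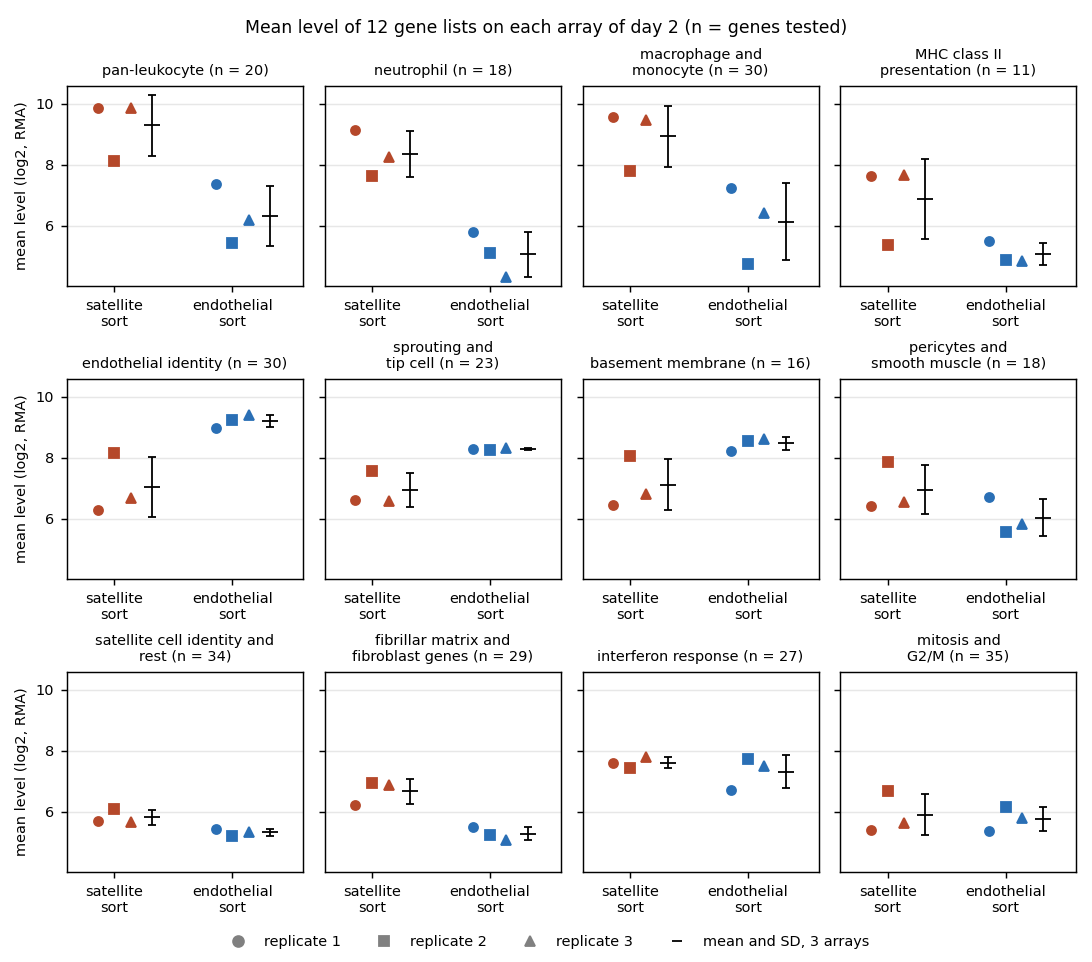
Mean log2 RMA level of 12 gene lists on each array of day 2, satellite sort left and endothelial sort right of each panel, with the mean and SD of 3 arrays and the number of genes tested (for neutrophils the 18 of 26 that passed the filter). Of the 18 neutrophil genes 9 passed only through the satellite arrays of day 2 and so had to be high there. Satellite replicate 2 (square) is lowest of its sort for the leukocyte lists and highest for the endothelial, basement membrane and pericyte lists.

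As with genes in general, most interferon response genes were not called between the sorts on day 2. They are switched on by STAT and IRF factors that bind the interferon-stimulated response element upstream of them. Of 27 tested 3 were higher in the satellite sort and 0 lower, against 5.82% and 6.31% of all genes tested. The median difference was 0.13, and without satellite replicate 2 the calls were 3 higher and 2 lower. Mx1, a GTPase that blocks viruses, read 6.85, 4.73 and 7.32 in the satellite sort, against 2.70, 2.78 and 3.41 in the endothelial sort (3.34, SE 0.46, adjusted p = 5.49e-05). Oas3, an enzyme that senses double-stranded RNA, read 7.37, 5.32 and 7.63 in the satellite sort, against 3.81, 3.82 and 3.64 in the endothelial sort (3.01, SE 0.37, adjusted p = 2.13e-05). Satellite replicate 2 lay lowest for both, as for the leukocyte markers. Zbp1, a sensor of nucleic acids, was called at 2.03 (SE 0.59, adjusted p = 0.0204), and lost its call without satellite replicate 1 or 3 or endothelial replicate 1 or 3. Bst2, the virus-tethering protein tetherin, read 9.19, 9.51 and 9.78 in the satellite sort, against 9.70, 10.44 and 10.14 in the endothelial sort (-0.60, SE 0.34, adjusted p = 0.284). Irf7, the factor that sustains the response, was not called either (0.79, SE 0.52, adjusted p = 0.38).

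The differences on day 2 were set against those on the other days. On days 0, 4 and 8 the median difference of the interferon genes was -2.33, -1.56 and -1.40. Their mean level on days 0, 2, 4 and 8 was 5.30, 7.61, 6.29 and 6.10 in the satellite sort. In the endothelial sort it was 7.50, 7.31, 7.84 and 7.34. A test of the day 2 difference against the mean of the differences on the other days called 830 of all genes higher (5.9%) and 616 lower (4.38%). Among the 27 interferon genes it called 17 higher. The value was 3.30 for Mx1, 2.91 for Irf7 (adjusted p = 0.0031) and 1.61 for Bst2 (adjusted p = 0.01). Genes that present antigen on MHC class I, many of them interferon targets, were read in the same way. Of 14 tested, limma called 0 on day 2, with 1 at an unadjusted p under 0.05. Over all 14064 genes, 1575 positive and 2116 negative differences met that p. The median difference of the 14 was -0.03, against -1.59, -1.53 and -1.18 on days 0, 4 and 8. The test against the other days called 8 of the 14 higher. B2m, the light chain of class I, read 12.36, 12.40 and 12.34 in the satellite sort, against 12.31, 12.49 and 12.38 in the endothelial sort, close to the highest values on the array.

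The 250 bases upstream of Oas3 and Bst2 are shown with the interferon-stimulated response element, searched as GAAA, 2 bases of any kind and GAAA again, in capitals. Both strands were searched, and matches may overlap. The Oas3 window is chr5:120777660-120777909 on the minus strand and holds 1 match, and the Bst2 window is chr8:71537473-71537722 on the minus strand and holds 2 that overlap.
Oas3: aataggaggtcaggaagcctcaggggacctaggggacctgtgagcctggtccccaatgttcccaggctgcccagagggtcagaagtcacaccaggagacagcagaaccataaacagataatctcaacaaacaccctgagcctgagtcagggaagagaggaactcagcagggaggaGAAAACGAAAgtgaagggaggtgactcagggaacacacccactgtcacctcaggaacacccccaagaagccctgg
Bst2: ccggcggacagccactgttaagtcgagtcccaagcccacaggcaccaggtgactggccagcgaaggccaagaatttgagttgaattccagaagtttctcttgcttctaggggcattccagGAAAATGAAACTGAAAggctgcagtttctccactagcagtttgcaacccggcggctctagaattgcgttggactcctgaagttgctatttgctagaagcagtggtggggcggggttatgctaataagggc
The letters occurred in 13 of the 21 windows found for the interferon list (61.9%), in 40 of 617 of genes called higher (6.48%), in 17 of 665 of genes called lower (2.56%) and in 347 of all 10874 (3.19%).

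Cell division and housekeeping genes had few calls between the sorts on day 2. Mki67, a marker of dividing cells, read 6.65, 7.78 and 6.65 in the satellite sort, against 6.62, 7.51 and 6.83 in the endothelial sort (0.03, SE 0.33, adjusted p = 0.967). Of 35 genes of mitosis limma called 0, with 1 at an unadjusted p under 0.05, and 1 was called lower without satellite replicate 2 and 1 higher without satellite replicate 3. Their mean was 5.42, 6.67 and 5.63 in the satellite sort and 5.37, 6.16 and 5.80 in the endothelial sort, with replicate 2 highest in each. Of 35 genes of DNA replication 2 were higher, near the share of all genes tested (5.82%). The 2 were Rrm2, a subunit of ribonucleotide reductase (1.41, SE 0.29), and E2f2, a factor that drives entry into S phase (1.26, SE 0.26). Of 32 oxidative phosphorylation genes limma called 0, with 0 at an unadjusted p under 0.05, and of 30 ribosome biogenesis genes 0, with 3 at an unadjusted p under 0.05. Over all 14064 genes, 1575 positive and 2116 negative differences met an unadjusted p under 0.05 in limma's test. A miss of the threshold does not show that the genes of these lists were equal.

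Of 15 glycolysis genes 3 were higher and 1 lower, and the direction differed between the hexokinases. Hk2, the inducible form, read 6.64, 5.50 and 6.63 in the satellite sort, against 4.33, 3.85 and 3.90 in the endothelial sort (2.23, SE 0.28, adjusted p = 2.75e-05). Hk1, the form of most tissues, read 5.81, 5.95 and 6.02 in the satellite sort, against 7.25, 6.87 and 6.83 in the endothelial sort (-1.06, SE 0.22, adjusted p = 0.00217). The sorts did not overlap for either, although the call of Hk1 was lost without satellite replicate 1 or endothelial replicate 1, where its difference fell under the minimum. The lactate exporter Slc16a3 was 5.49-fold higher (2.46, SE 0.37). Of 20 immediate early genes 7 were higher, and 4 were without satellite replicate 1 or endothelial replicate 2. Besides Egr2 they included Nr4a1, an orphan receptor induced by stimulation (1.61, SE 0.27), Egr3 (1.66, SE 0.39) and Atf3, a stress factor (1.20, SE 0.29). Fos read 10.54, 10.20 and 10.72 in the satellite sort, against 9.79, 9.53 and 9.85 in the endothelial sort, and its difference was under the minimum (0.76, SE 0.20, adjusted p = 0.0124).

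**Figure D4:**
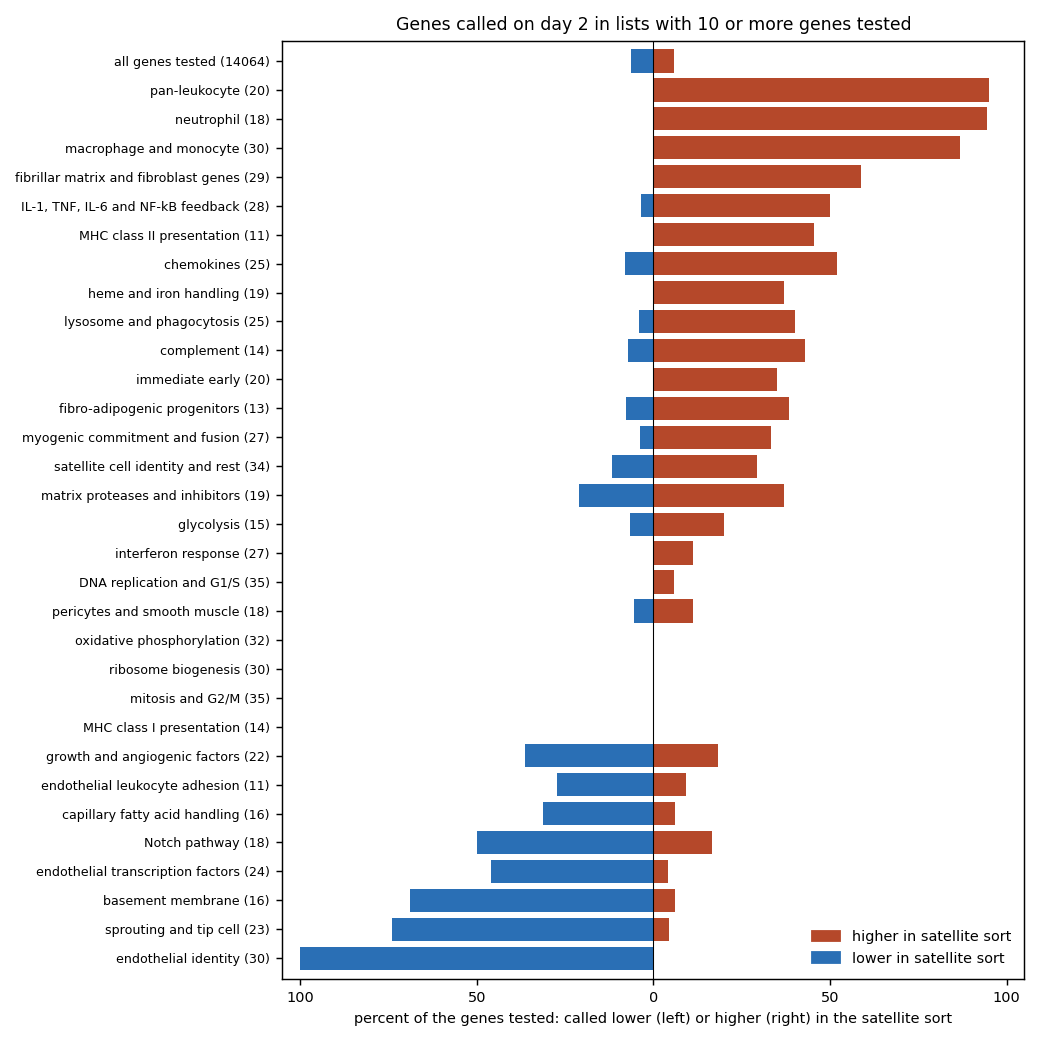
Percent of the genes tested in each list that were called lower (left of 0) or higher (right of 0) in the satellite sort on day 2, with all genes tested at the top (6.31% and 5.82%). Among these lists, each with at least 10 genes tested, those of all leukocytes, neutrophils (18 of 26 genes tested) and macrophages reach furthest to the right, and endothelial identity, lower in 30 of 30 genes, to the left. Of the 18 neutrophil genes 9 passed the filter only through the satellite arrays of day 2. Those 9 had to be high there, and the neutrophil bar is given as a description.

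Satellite identity genes differed less between the sorts on day 2 than on the other days. Their median difference was 0.47 on day 2, against 2.78, 2.40 and 2.63 on days 0, 4 and 8, and the test against the other days called 26 of the 34 lower and 1 higher. Pax7 had a value of -2.95 in that test (adjusted p = 0.00015) and Myf5 of -2.47 (adjusted p = 0.00094). The difference of Myod1 on day 2, 1.40, was below the 2.17, 1.96 and 2.62 of days 0, 4 and 8, but that test did not call it (-0.85, adjusted p = 0.11). Met was 3.41 on day 2, against 2.51, 3.50 and 2.99 on days 0, 4 and 8, and was not called in the test (0.41, adjusted p = 0.63). Met thus stood at a difference between those of the other days, although a miss of the threshold does not show that its differences were equal. The markers of all leukocytes had medians of 0.06, 0.46 and 0.54 on days 0, 4 and 8, against 3.06 on day 2, and 15 of the 20 were called higher in the test.

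Endothelial identity genes had a negative median difference on each of the 4 days, at -3.87, -2.17, -2.83 and -2.39 on days 0, 2, 4 and 8. The test against the other days called 2 of the 30 higher, near the share of all genes (5.9%). Kdr was among the 2 (1.46, adjusted p = 0.02), but was not called without satellite replicate 2 (0.938, adjusted p = 0.06). Basement membrane genes had medians of -0.19, -1.59, -1.41 and -0.73 on days 0, 2, 4 and 8. In the test 3 of 16 were called lower, against 4.38% of all genes. The labels number the arrays day by day, and whether that was an order of processing is not given in the sources used here. If it was, day and order cannot be told apart.

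**Figure D5:**
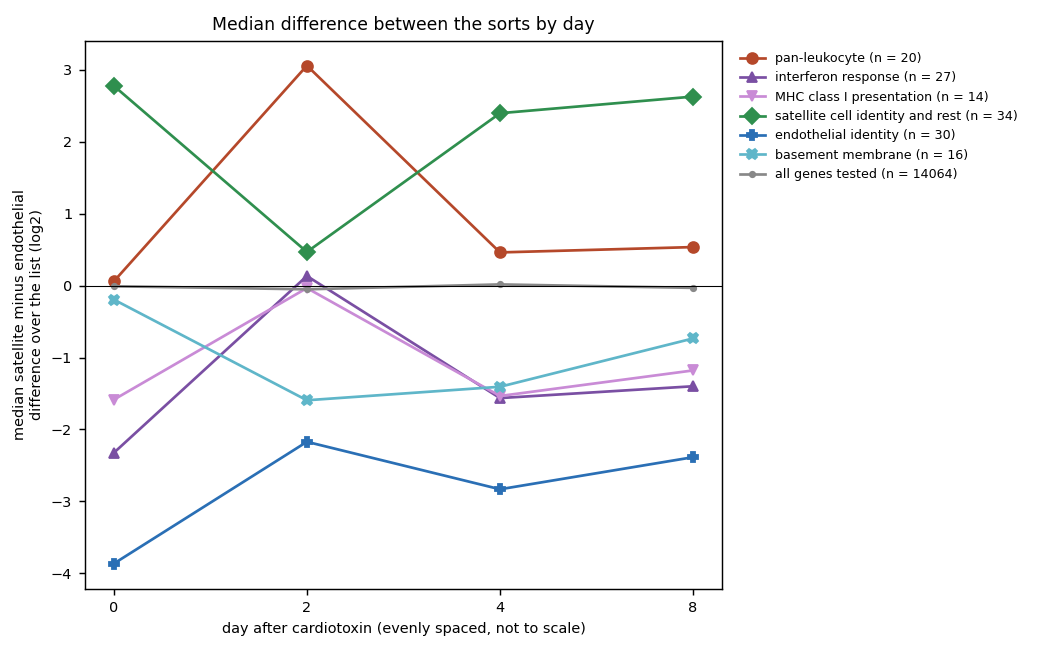
Median satellite minus endothelial difference (log2) over the genes of 6 lists and over all 14064 genes tested, on days 0, 2, 4 and 8. On day 2 the markers of all leukocytes, of which all 20 on the array were tested, stand at 3.06, satellite identity at 0.47, and the interferon and MHC class I lists at 0.13 and -0.03.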

How the data were processed

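RNA of sorted cells (750 pg a sample, column purified) was amplified with the NuGEN Ovation Pico V2 kit and hybridised to 1-colour MoGene 2.0 ST arrays, per the labels' protocols. The deposited values are log2 RMA levels, made by the authors with RMA, per the submitters' processing notes, and the RMA software version is not given in the sources used here. Quantile normalization within RMA gives all arrays nearly one distribution, so a level is relative to the other genes of its array. Amplification from so little RNA adds noise to low levels, and 3 arrays a group limit the precision. No scan date or slide was used.

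Of 24479 probe sets 23281 had 1 gene symbol and 1198 none. Genes above the median of their array on at least 3 arrays were tested, 14064 in all, with the brighter of probe sets that shared a symbol. A gene high in 1 group alone can pass this filter, so lists with members left out are also given without it. A model with 8 group means over 24 arrays (16 residual degrees of freedom) was fitted with limma 3.58.1 in R 4.3.3, and p-values were adjusted by Benjamini-Hochberg over all genes. All p-values given are from this model on all 24 arrays, except where the text names a fit on fewer arrays. Calls needed an adjusted p below 0.05 and a difference of 1 or more either way. A fold is given only where the lower group's mean lay at least 1 above the mean array median, and is then 2 to the power of the difference. A second contrast set the day 2 difference against the mean of those on days 0, 4 and 8. The method was tested on simulated data.

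Named are the sort markers, a few defining genes, the 12 largest called differences each way without overlap, up to 5 called genes each way and 3 bright uncalled genes of each of 38 lists, and the 8 largest each way in the second contrast. Genes outside this rule were chosen after their values were seen. The members and lists were chosen with earlier results of these data known. The titles call the arrays biological replicates, but nothing says how many animals they came from. The p-values and SEs thus measure the spread between these samples, estimated over all 8 groups, and not that of the day 2 arrays alone. Alternatives changed the filter, scaling, variance model, fold minimum, samples and replicate block.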

Additional observations from a re-analysis of the deposited data

Results flagged for a closer look

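The difference between the sorts on day 2 was not that of the other days for many genes, by limma's test of the day 2 difference against the mean of those on days 0, 4 and 8. It was larger in 830 genes and smaller in 616. The 8 largest positive values were those of genes known from myeloid cells for the most part. They were 5.06 for Fpr2, 4.92 for Hdc (histidine decarboxylase, which makes histamine), 4.81 for Hp, 4.62 for Ly6c2, 4.61 for Slfn4, 4.55 for Clec4e, 4.53 for Cysltr1 (a leukotriene receptor) and 4.42 for Il1r2. Some of these values rest in part on negative differences on the other days. Cysltr1 overlapped on day 2, at 1.82, and stood at -3.36, -3.09 and -1.69 on days 0, 4 and 8. Ly6c2 was 2.47 on day 2 and -2.98, -1.78 and -1.67 on those days. Hdc was 3.11 and -1.26, -2.91 and -1.26, while Il1r2 was 4.65 and 0.01, 0.46 and 0.21. The 8 largest negative values were -4.42 for Chodl, -4.39 for Mrln (myoregulin, a peptide that restrains the calcium pump of muscle), -4.18 for Zim1, -3.76 for Capn6, -3.69 for Rtl3, -3.63 for Pcdhgb1, -3.61 for Lix1 and -3.54 for Prox1. The markers of all leukocytes averaged 9.29 in the satellite sort of day 2 and between 4.20 and 6.75 in the other 7 groups, and their part in these values was not tested.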

How the results depend on the processing

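The counts on day 2 moved by over 1.5 times only when the 6 arrays of day 2 were fitted alone. That fit has fewer arrays to estimate the spread, and takes it from day 2 only. The counts were then 338 higher and 447 lower, and 516 and 420 with a replicate block in addition. Of the 138 genes named in the text and called on day 2, 41 were not called in the 6 arrays alone, with adjusted p between 0.0501 and 0.241, among them Pecam1, Cd34, Cdh5, Tie1, Angpt2, Dll4, Vegfa, Col4a1, Des, Spry1, Ccr2, Fcgr1, Cd53, Ccl7 and H2-DMa. With the block in addition 25 were not called, 19 of them the same genes. Some of the genes not called in the 6 arrays alone spread widely on day 2. The SD was 1.57 in the satellite sort and 0.39 in the endothelial sort for Angpt2, and 1.43 and 0.30 for Tie1. For Ccr2 it was 1.04 and 2.64. Of the 785 genes called in the 6 arrays alone, 761 were among the 1706 of the whole series. With a replicate block over all arrays the counts were 856 higher and 888 lower, and 1634 of those 1744 genes were shared. Same-numbered arrays of day 2 had correlations of 0.153, 0.198 and 0.0425 in their deviations from the group means. Satellite replicates 1 and 2 correlated best with their own number, and replicate 3 with endothelial replicate 1 (0.0963). On the other days the same-numbered values ran from -0.0649 to 0.138. These values cannot settle whether the numbers mark pairs. The protocols state no pairing, so the main model used none, and the fits with a block are given beside it. Under array quality weights the test against the other days called 950 genes lower, against 616, and the cause was not tested. Leaving out 1 array at a time gave 621 to 1065 genes higher and 666 to 1041 lower on day 2, and 535 to 1204 higher and 401 to 862 lower against the other days, with each highest count without satellite replicate 2. Among the genes named in the text, direction turned for 3, each uncalled and near 0. Mki67 was -0.23 under array quality weights and ranged from -0.34 (without satellite replicate 2) to 0.29 (without endothelial replicate 2) when 1 array was left out. Mpo was 0.0713 at a common 75th percentile and 0.0188 under array weights, and ranged from -0.0919 (without satellite replicate 3) to 0.0547 (without endothelial replicate 1). B2m was 0.0611 at a common 75th percentile and ranged from -0.0624 (without endothelial replicate 1) to 0.0263 (without endothelial replicate 2).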
